A study of Sus scrofa with 12 samples.

Results

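The miR-183 cluster is a group of 3 related miRNAs, miR-183, miR-96 and miR-182, whose genes lie side by side. It was followed here in the testes of Hezuo (HZ) boars, a native Chinese breed that matures early, and of Landrace (LC) boars. Every listed miRNA named miR-183, miR-96 or miR-182 was taken, which gave 9 of the 1452 entries of the table. Of these, 4 were named miR-183, 2 miR-96 and 3 miR-182. The 12 small RNA libraries fell into 4 groups of 3: HZ boars at 30 days of age (Ha), HZ boars at 120 days (Hb), LC boars at 30 days (La) and LC boars at 120 days (Lb). The labels give no treatment or genetic change in any group. Because RNA was pooled according to the methods, it is not settled that each library is 1 boar, and the SD and the p-values measure the spread between libraries. In whole tissue, fewer cells of a type and less RNA per cell cannot be told apart.

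miRNAs of this kind are cut from 1 primary transcript as hairpins. Each hairpin can give a mature miRNA from its 5p arm and another from its 3p arm. Bases 2 to 8 of the mature miRNA, the seed, pair with target mRNAs, and miRNAs with the same seed can share targets. The cluster is best known from sensory organs such as the retina and the inner ear, where changes in the seed of miR-96 cause hearing loss, and its miRNAs have also been found in male germ cells.

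In the RefSeq annotation of Sscrofa11.1, MIR183 spans chr18:18982269-18982338, MIR96 spans chr18:18982506-18982590 and MIR182 spans chr18:18986830-18986913. Between MIR183 and MIR96 lie 167 bases, and between MIR96 and MIR182 lie 4239. The bounds of no protein-coding gene overlapped the 3 genes. The nearest such gene before them, UBE2H, ended 49359 bases away, and the nearest after them, NRF1, began 21494 bases away.

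The sequences of the 9 entries are shown first, because the arm, the seed and the ends of a sequence are what tell them apart. They are given 5′ to 3′ as deposited, with the seed in capitals. The names that begin with ssc are pig miRNAs of miRBase. The others are listed by the authors with the suffix x, y or z.
ssc-miR-183: tATGGCACtggtagaattcactg
miR-183-x: aTGGCACTggtagaattcactgaa
miR-183-z: aTGGCACTggtagaattcactgtaa
miR-183-y: tGAATTACcgaagggccataat
ssc-miR-96-5p: tTTGGCACtagcacatttttgct
miR-96-x: tTTGGCACtagcacatttttgaa
ssc-miR-182: tTTGGCAAtggtagaactcacact
miR-182-x: tTTGGCAAtggtagaactcacaccgt
miR-182-y: tGGTTCTAgacttgccaact
The entries miR-183-y and miR-182-y come from the 3p arm, and the other 7 from the 5p arm. The arm was taken from the suffix x, y or 5p of the name. A name without one of these was read as 5p, being the most abundant entry of its miRNA or close to that in sequence. For miR-183 and miR-96 the places in hairpin sequences that the authors deposited for the same bases gave the same arms. For miR-182 there was no such hairpin.

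The 5p arms carried 4 seeds. The seeds ATGGCAC of ssc-miR-183, TTGGCAC of miR-96 and TTGGCAA of miR-182 share the run TGGCA. The entries miR-183-x and miR-183-z begin 1 base further into the miRNA, so their seed is TGGCACT. The leading sequences were also compared over their whole length, seed included. By single-base edits, ssc-miR-183 and ssc-miR-182 were 6 apart, ssc-miR-183 and ssc-miR-96-5p 9, and ssc-miR-96-5p and ssc-miR-182 10. No entry had the same sequence as another listed miRNA, but tags can be split between entries that differ only in their ends, such as miR-182-x, which was 2 edits from ssc-miR-182.

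Other listed miRNAs had some of these seeds. The seed of miR-96 was also that of ssc-miR-1271-5p, at a mean of 1201 TPM over the 12 libraries, of miR-1271-x, at 199 TPM, and of a predicted miRNA, m0300-5p, with 13 counts in all (predicted miRNAs are given here by the authors' number). The authors' TPM scales the counts of a library to its total and has no term for length. The seed of miR-182 was also that of miR-263-z, with 55 counts in all. Its sequence is shown because it resembles both miR-182 and miR-183:
miR-263-z: tTTGGCAAtggtagaattcact
It stood 3 edits from ssc-miR-183 and as many from ssc-miR-182.

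Each leading entry, that with the highest mean TPM among the 5p entries of its miRNA, took nearly all counts of that miRNA. The mean over the 12 libraries was 755 TPM for ssc-miR-182, 376 TPM for ssc-miR-183 and 230 TPM for ssc-miR-96-5p, at ranks 90, 126 and 154 of the 1452 entries. Together these 3 held 97.5 to 98.7% of the counts of the 9 entries in each library. The 9 entries held 0.0841 to 0.275% of all listed counts, which numbered 6520197 to 16874633 per library. The floor used for counts of 0, 3 counts, was worth 0.158 TPM in the deepest library and 0.404 TPM in the shallowest. Tags amplified by PCR are not independent molecules, so this floor covers counting error only.

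The whole libraries were checked against the marker miRNAs of the tissue and of other cell types it could hold. The testis miRNA miR-202 summed to between 9608 and 24405 TPM in every library, and none of its 5 entries was at 0 in any group. The miRNAs of meiotic and haploid germ cells, miR-34c and miR-449, summed to 16.6 to 76.9 TPM in the 6 libraries at 30 days and to 2580 to 13895 TPM in the 6 at 120 days. To see whether a library had been deposited more than once, replicates were compared by chi-square, which gave 49.5 to 1178 per degree of freedom, and each was counted as 1 replicate. TMM factors, the scaling that edgeR applies, ranged from 0.694 in Hb library 2 to 1.20 in Hb library 1.

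ssc-miR-183 was higher at 120 days than at 30 days in both breeds. Its level was 213, 214 and 217 TPM in Ha and 779, 672 and 540 TPM in Hb. In La it was 131, 154 and 147 TPM, and in Lb 463, 523 and 460 TPM. Neither breed's groups overlapped, and within each age every HZ library was above every LC library. The means were 215 ± 2.07 TPM in Ha and 664 ± 119.7 TPM in Hb, against 143.9 ± 11.7 TPM in La and 482 ± 35.7 TPM in Lb (SD, n = 3).

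ssc-miR-96-5p, whose seed is that linked to hearing loss, showed the same order by age. It was at 152, 156 and 162 TPM in Ha and at 401, 250 and 305 TPM in Hb. In La it was at 98.3, 116 and 110 TPM, and in Lb at 342, 337 and 328 TPM. At 30 days every HZ library was above every LC library, while at 120 days the LC values lay within the HZ range.

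ssc-miR-182, the most abundant of the cluster, measured 559, 545 and 586 TPM in Ha and 1184, 677 and 883 TPM in Hb. In La it measured 506, 553 and 529 TPM, and in Lb 1016, 1060 and 959 TPM. The ages did not overlap in either breed, whereas the breeds overlapped at both ages.

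Among these 3, the order ssc-miR-182, ssc-miR-183, ssc-miR-96-5p held in every library. In Hb library 2, however, ssc-miR-182 had 6210 counts and ssc-miR-183 had 6163, which is within counting error.

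**Figure D1:**
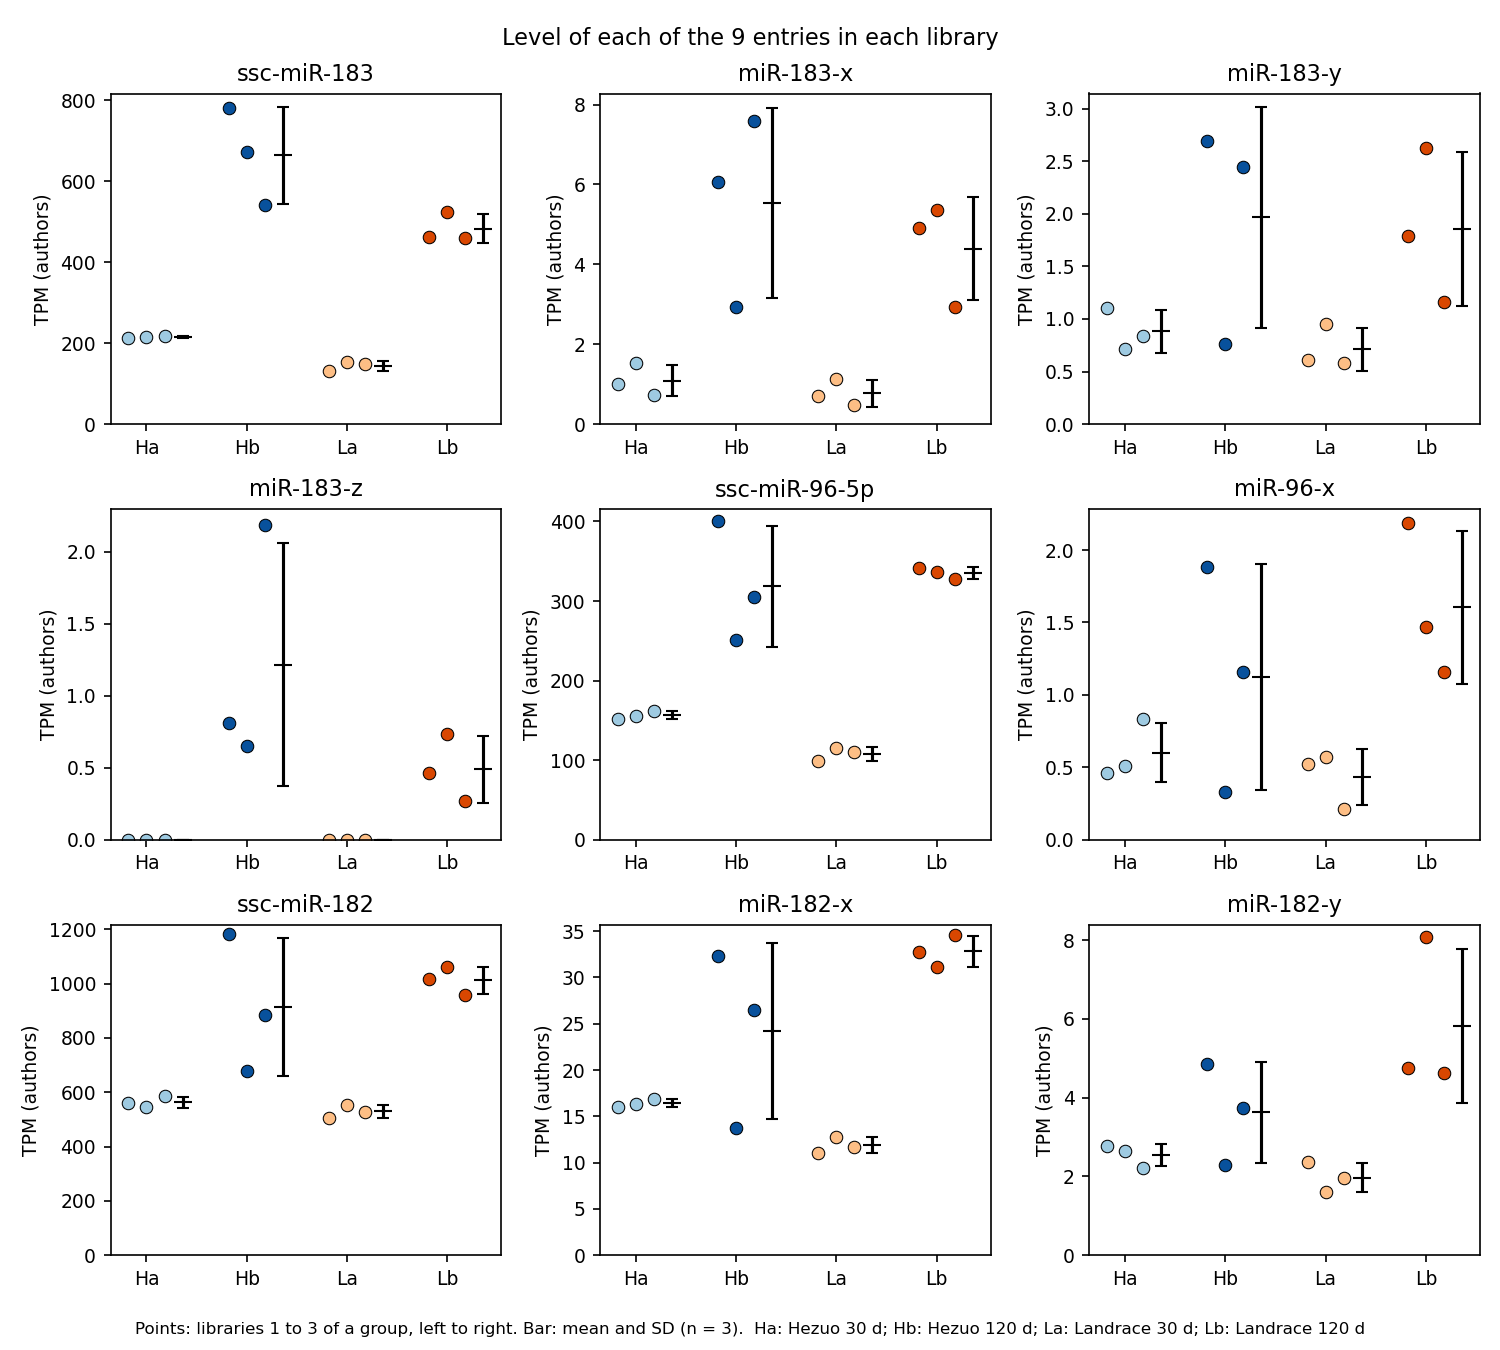
Level in TPM of each of the 9 entries (1 panel each) in the 3 libraries of Ha, Hb, La and Lb, with the mean and SD of each group beside the points and a count of 0 drawn at 0. The 3 leading entries are higher at 120 than at 30 days in each breed, the Hb libraries are widely spread, and miR-183-z is at 0 in all 6 libraries at 30 days.

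In Ha vs. Hb, which compares HZ boars before and at the age of maturity, 5 of the 9 entries were called higher in Hb. For a call, edgeR had to give both a log2 fold change beyond 1 in size and, before adjustment, p under 0.05. By that rule 25.1% of all 1441 miRNAs tested were higher, and 39.6% changed in either direction. Of the 5 entries, 4 also had an adjusted p-value under 0.05, which with the fold rule held for 31.6% of all miRNAs. All 9 entries had a positive log2 fold change, with a median of 1.13 against 0.32 over all miRNAs tested. The TPM of Ha and Hb did not overlap in 5 entries, all higher in Hb, and 23.0% of all miRNAs showed that pattern in this direction.

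Within the cluster the fold changes were unequal. The edgeR log2 fold change of ssc-miR-183 was 1.78 (SE 0.27, adjusted p = 0.000236) and that of ssc-miR-96-5p was 1.13 (SE 0.24, adjusted p = 0.00294). That of ssc-miR-182 was 0.79 (SE 0.23, adjusted p = 0.0168), under the fold threshold. The entry with the shifted seed, miR-183-x, rose by 2.41 on the log2 scale (SE 0.46, adjusted p = 0.00133). It went from 1.01, 1.52 and 0.741 TPM in Ha to 6.06, 2.94 and 7.59 TPM in Hb, without overlap.

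The other 5p entry with this seed, miR-183-z, had no count in Ha and 6, 6 and 17 counts in Hb. Its mean in Hb was at least 4.25-fold higher than the floor of 3 counts per library in Ha, and at least 2.55-fold without Hb library 3. The 3p entry miR-183-y was called too, at 1.18 (SE 0.51), but its adjusted p was 0.0893 in edgeR. The call was lost without Ha library 1, 2 or 3 or Hb library 3, at 1.36, 1.07, 1.13 and 0.96. Before TMM scaling, its levels of 2.69, 0.763 and 2.45 TPM in Hb overlapped the 1.11, 0.710 and 0.833 TPM of Ha in library 2.

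The remaining entries were not called in HZ boars. The log2 fold change was 0.89 (SE 0.63) for miR-96-x, 0.62 (SE 0.31) for miR-182-x and 0.58 (SE 0.38) for miR-182-y. In TPM, Hb library 2 lay within or below the range of Ha in each of them. TPM leaves out the TMM factor of that library, 0.694. With the TMM factors, miR-182-x and miR-182-y in Hb library 2 lie above the range of Ha. For miR-182-x the values were 16.0, 16.3 and 16.9 TPM in Ha and 32.3, 13.7 and 26.5 TPM in Hb.

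In La vs. Lb, the same ages in LC boars, 8 of the 9 entries were called higher in Lb, all with an adjusted p-value under 0.05. The shares over all 1446 miRNAs tested were 26.3% for higher calls and 32.1% for calls in either direction, and 28.6% with the adjusted p-value as well. The ninth, ssc-miR-182, had an adjusted p-value under 0.05 and a fold change under the threshold. None of the 9 entries overlapped between La and Lb, all being higher in Lb, a pattern that 36.3% of all miRNAs had. The median log2 fold change was 1.45 for the entries and 0.32 for all miRNAs tested.

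In LC boars ssc-miR-183 and ssc-miR-96-5p rose by similar amounts. The log2 fold change was 1.56 (SE 0.13, adjusted p = 1.14e-06 in edgeR) for ssc-miR-183 and 1.45 (SE 0.12, adjusted p = 1.22e-06) for ssc-miR-96-5p. For ssc-miR-182 it was 0.76 (SE 0.11, adjusted p = 0.000122), close to its value in HZ boars.

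The minor entries rose in LC boars as well. The shifted miR-183-x rose by 2.38 on the log2 scale (SE 0.40, adjusted p = 0.000432 in edgeR), from 0.698, 1.14 and 0.474 TPM in La to 4.90, 5.35 and 2.94 TPM in Lb. The entry miR-183-z had no count in La and 7, 7 and 3 counts in Lb, at least 2.08-fold above the floor. The longer miR-182-x rose by 1.29 (SE 0.17), from 11.08 to 12.8 TPM in La to 31.1 to 34.5 TPM in Lb. The values were 1.79 (SE 0.47) for miR-96-x, 1.38 (SE 0.33) for the 3p entry miR-182-y and 1.21 (SE 0.43, adjusted p = 0.0407) for the 3p entry miR-183-y, whose call was lost in DESeq2 (1.18, unadjusted p = 0.0566). The 3p entries were near the floor of counting in both breeds, with 7 to 27 counts per library for miR-183-y and 17 to 77 for miR-182-y. So was miR-96-x, with 3 to 33 counts per library. Without Lb library 2, miR-182-y stood at 0.97 and miR-183-y at 0.80, both under the fold threshold, and without La library 3 miR-183-y stood at 1.08 with an unadjusted p of 0.0622 in edgeR.

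**Figure D2:**
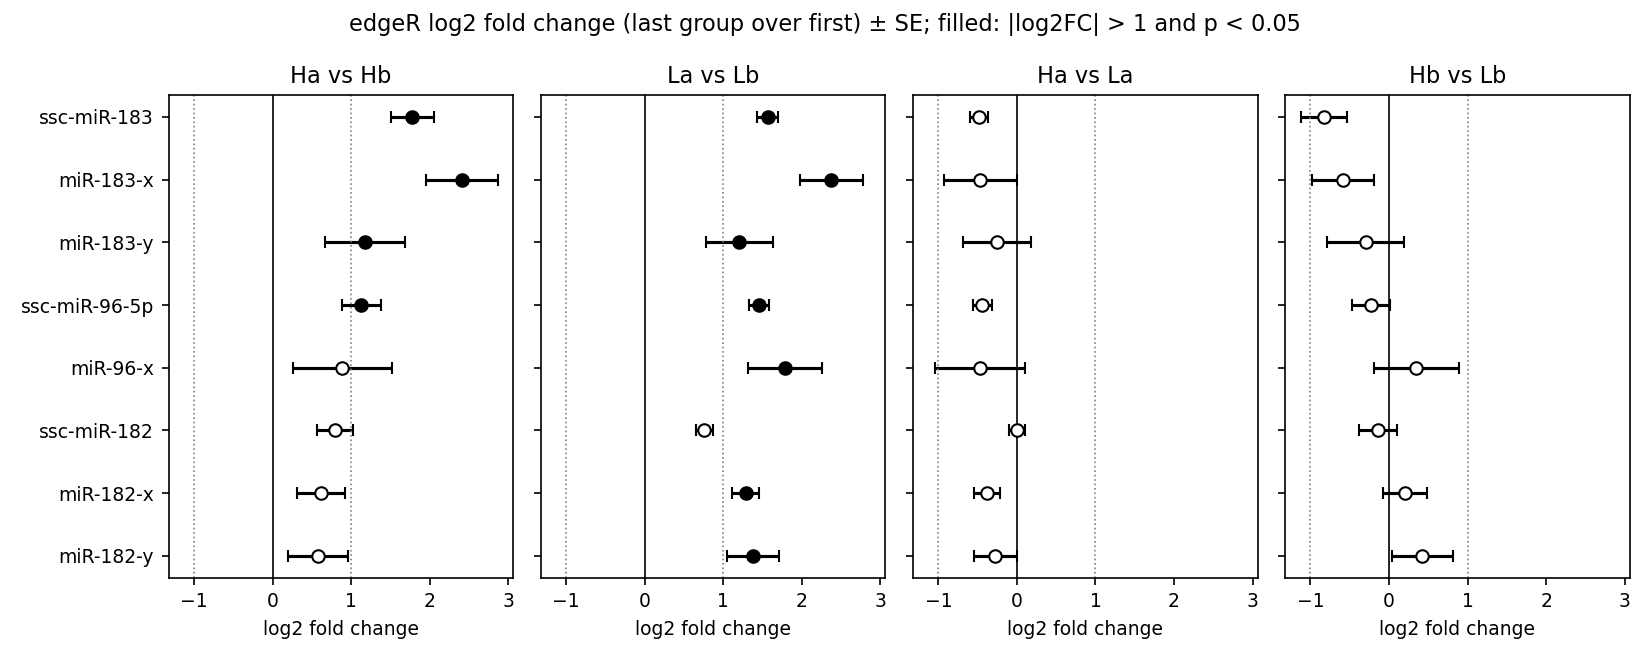
edgeR log2 fold change, with its SE as the bar, of 8 entries in the 4 comparisons, taken as the group named last over the group named first. Filled points passed both thresholds, dotted lines mark a log2 fold change of 1 in either direction, and miR-183-z is left out because it has no count at 30 days. All points lie right of 0 in the 2 comparisons by age, and ssc-miR-182 stays under 1 in both.

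In Ha vs. La, between the breeds at 30 days, none of the 8 entries with a count was called. edgeR gave 3 of them an unadjusted p-value under 0.05, and DESeq2 likewise gave 3 and called none. Over all 1278 miRNAs tested, 9.47% were called. All 8 log2 fold changes were negative, with a median of -0.41 against -0.01 over all miRNAs. The TPM of ssc-miR-183, ssc-miR-96-5p and miR-182-x did not overlap, lower in La, as in 16.7% of all miRNAs. Of the marker lists of germ cells and red blood cells, 2 of 4 germ-cell entries were called lower in La and 3 of 10 red blood cell entries higher. The germ-cell list summed to 23.5 to 76.9 TPM in Ha and 16.6 to 24.6 TPM in La, and the red blood cell list to 1357 to 1768 TPM in Ha and 2201 to 2468 TPM in La. The testis list summed to 18675 to 21867 TPM in Ha and 15272 to 17278 TPM in La, with none of its 5 entries called. The part of these lists in these differences was not tested.

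The log2 fold change of ssc-miR-183 was -0.49 (SE 0.12, adjusted p = 0.0150 in edgeR), lower in LC boars, and that of ssc-miR-96-5p was -0.44 (SE 0.12, adjusted p = 0.0279). ssc-miR-182 stood at -0.00036 (SE 0.10). The longer form miR-182-x stood at -0.38 (SE 0.17, adjusted p = 0.179).

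In Hb vs. Lb, between the breeds at 120 days, 1 of the 9 entries was called, miR-183-z, lower in Lb. By the same rule 8.38% of all 1444 miRNAs tested were lower and 16.8% changed in either direction. It rested on 6, 6 and 17 counts in Hb and 7, 7 and 3 in Lb (log2 fold change -1.60, SE 0.67, adjusted p = 0.18 in edgeR). It was no longer called without Hb library 3, at -0.91, or without Lb library 1 or 3, at -1.55 and -1.34.

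ssc-miR-183 was the one entry whose libraries did not overlap between Hb and Lb, which 7.96% of all miRNAs showed in this direction. Its log2 fold change was -0.83 (SE 0.29, unadjusted p = 0.0139, adjusted p = 0.123 in edgeR). It was -0.46 without Hb library 2, and -0.78 with an unadjusted p of 0.0597 without Lb library 1. For ssc-miR-96-5p it was -0.23 (SE 0.24) and for ssc-miR-182 -0.14 (SE 0.24). Scaling by library size alone raised the median of all miRNAs by 0.27 in this comparison, left ssc-miR-183 at -0.45 with an unadjusted p of 0.131 in edgeR and turned the last 2 to 0.09 and 0.16. Of the marker lists, 2 of 8 epithelial entries were called higher in Lb, as were 2 of 11 striated muscle entries with 1 lower, where 16.8% of all miRNAs were called in either direction. The germ-cell list summed to 2580 to 13177 TPM in Hb and 11279 to 13895 TPM in Lb, and the epithelial list to 52.4 to 248 TPM and 142 to 380 TPM, so both overlapped. The testis list summed to 9608 to 17266 TPM in Hb and 17966 to 24405 TPM in Lb, which did not overlap before TMM scaling. None of its 5 entries was called. The part of these lists in these values was not tested.

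Whether age acted differently in the breeds was tested as an interaction over all 12 libraries. Of the 8 entries that could be fitted, none was called or had an unadjusted p-value under 0.05 in edgeR, and 1 had one in DESeq2, which called none. Over all 1452 miRNAs, 17.1% were called. The interaction, positive where the rise was larger in LC boars, was -0.27 (SE 0.28) for ssc-miR-183, 0.26 (SE 0.23) for ssc-miR-96-5p and -0.09 (SE 0.21) for ssc-miR-182. Scaling by library size alone turned the first to 0.14 and the last to 0.26. The interaction was 0.61 (SE 0.31) for miR-182-x and 0.74 (SE 0.46) for miR-182-y.

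Whether the 3 miRNAs changed in step was then asked within each library. A ratio of counts from the same library needs no scaling between libraries. The log2 ratios were compared by an exact two-sided permutation test over the 12 libraries, in which ages were exchanged within a breed or breeds within an age, which gives 400 arrangements. The smallest p-value the test can give is 0.005, and p-values were adjusted over 16 tests.

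The balance moved from miR-182 towards miR-183 with age. There were 2.55 to 2.70 counts of ssc-miR-182 for each of ssc-miR-183 in Ha and 1.01 to 1.64 in Hb. In LC boars there were 3.59 to 3.87 in La and 2.03 to 2.19 in Lb. The log2 ratio fell by 0.88 with age (SE 0.11, exact permutation p = 0.005, adjusted p = 0.016), by 0.95 in HZ and by 0.81 in LC boars, and the ages did not overlap in either breed.

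The ratio of ssc-miR-182 to ssc-miR-96-5p fell as well. It was 3.50 to 3.69 in Ha and 2.70 to 2.96 in Hb. In LC boars it went from 4.78 to 5.15 down to 2.93 to 3.15. On the log2 scale it fell by 0.52 (SE 0.032, exact permutation p = 0.005, adjusted p = 0.016). The fall was 0.34 in HZ and 0.70 in LC boars.

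The pair that lies closest in the genome, miR-183 and miR-96, moved apart with age as well. There were 0.712 to 0.746 counts of ssc-miR-96-5p for each of ssc-miR-183 in Ha and 0.373 to 0.564 in Hb. In La the ratio was 0.746 to 0.753 and in Lb 0.643 to 0.738. The log2 ratio fell by 0.36 over both breeds (SE 0.096, exact permutation p = 0.005, adjusted p = 0.016), by 0.61 in HZ and by 0.11 in LC boars. The difference between these falls was not tested.

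The breeds also differed in all 3 ratios. In LC boars the log2 ratio of ssc-miR-182 to ssc-miR-183 was higher by 0.56 (SE 0.11, exact permutation p = 0.005, adjusted p = 0.016), with 0.49 at 30 days and 0.63 at 120 days. The ratio of ssc-miR-96-5p to ssc-miR-183 was higher by 0.30 (SE 0.096, exact permutation p = 0.005, adjusted p = 0.016), with 0.04 at 30 days and 0.55 at 120 days. The ratio of ssc-miR-182 to ssc-miR-96-5p was higher by 0.26 (SE 0.032, exact permutation p = 0.01, adjusted p = 0.0267), with 0.45 at 30 days and 0.08 at 120 days. Without 1 of some libraries the last 2 lost an adjusted p under 0.05: without Lb library 1 or 3 for the former, at 0.27 and 0.29, and without Hb library 2 or Lb library 1 or 2 for the latter, at 0.24, 0.27 and 0.25.

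As shares of the counts of all 9 entries, miR-183 took 22.2 to 23.1% in Ha and 31.2 to 41.7% in Hb, against 17.6 to 18.5% in La and 25.2 to 27.0% in Lb. The share of miR-182 was 60.2 to 61.4% in Ha and 42.8 to 51.6% in Hb, against 67.6 to 69.2% in La and 55.7 to 56.4% in Lb. The share of miR-96 was 16.1 to 16.7% in Ha and 15.5 to 17.3% in Hb, against 13.2 to 13.8% in La and 17.2 to 18.4% in Lb.

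**Figure D3:**
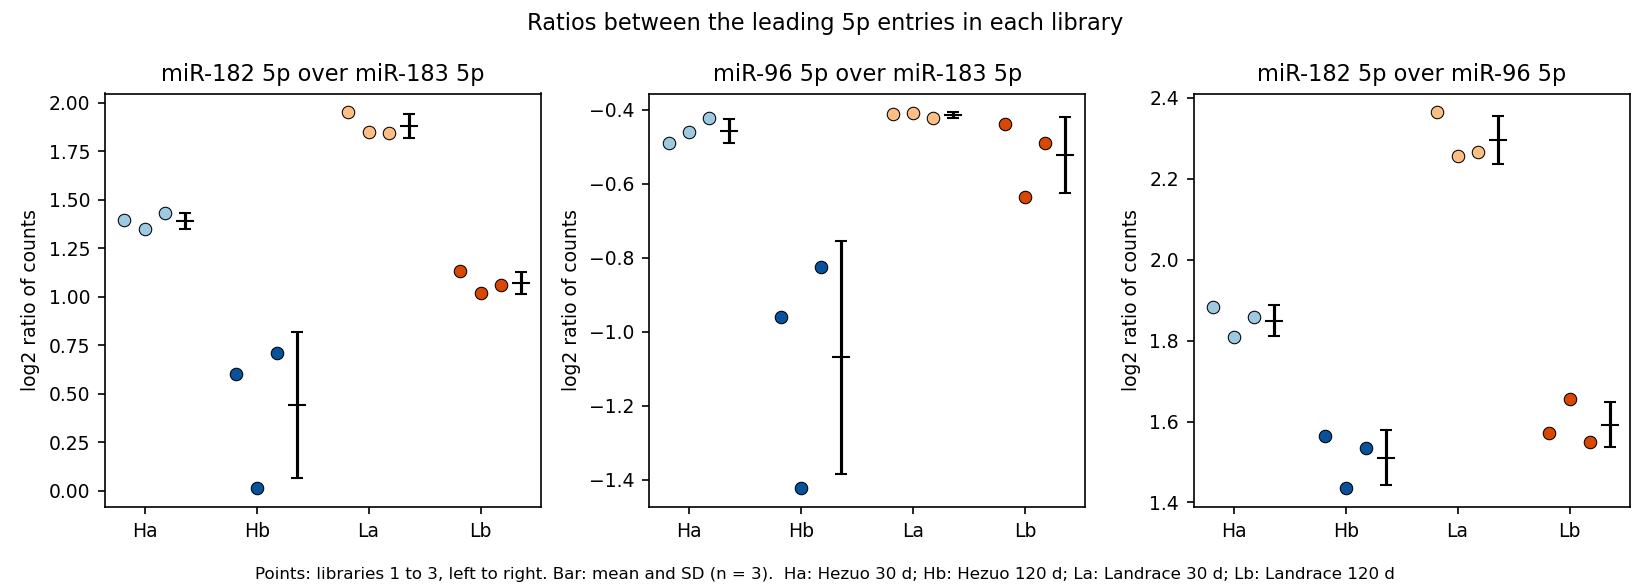
Log2 ratio of the counts of 2 leading 5p entries in each of the 3 libraries of Ha, Hb, La and Lb, with the mean and SD beside the points, for 3 pairs (1 panel each). The ratios with ssc-miR-182 on top are lower at 120 than at 30 days in each breed, and the ratio of ssc-miR-96-5p to ssc-miR-183 is lowest in Hb, where it spans 0.373 to 0.564 before the logarithm.

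By arm, no ratio passed the test. The 3p arms held 0.188 to 0.543% of the counts of the 9 entries. The log2 ratio of the 3p to the 5p arm differed with age by -0.56 for miR-183 (SE 0.35, exact permutation p = 0.125, adjusted p = 0.25) and by 0.18 for miR-182 (SE 0.17, exact permutation p = 0.45, adjusted p = 0.627). The value for miR-182 averages -0.21 in HZ and 0.56 in LC boars, and was 0.064 without Lb library 2. Between the breeds it differed by 0.36 (SE 0.35, adjusted p = 0.536) for miR-183 and by 0.11 (SE 0.17, adjusted p = 0.726) for miR-182, where it was -0.27 at 30 days and 0.50 at 120 days. Without Hb library 2 the values for miR-183 were -0.27 by age and 0.073 by breed. With so few 3p counts these errors are wide. No 3p entry of miR-96 was among the 9.

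For the ends of the 5p miRNAs no ratio passed after adjustment. The minor 5p entries of miR-183, which have the shifted seed, stood higher against the leading entry at 120 days by 0.91 (SE 0.36, exact permutation p = 0.03, adjusted p = 0.0686), by 0.91 in HZ and by 0.90 in LC boars. The same difference was 0.17 (SE 0.096, adjusted p = 0.536) for miR-182 and -0.07 (SE 0.38, adjusted p = 0.925) for miR-96. By breed these were -0.19 in HZ and 0.53 in LC boars for miR-182, and -0.38 and 0.23 for miR-96. For miR-182 the log2 ratio was -5.51 to -5.43 in La and -5.09 to -4.79 in Lb, which did not overlap, whereas Ha and Hb did. Whether these age differences were unlike between the breeds was not tested. Without Hb library 2 the value for miR-183 was 1.11 with an adjusted p of 0.04. Between the breeds none of the 3 had an adjusted p under 0.05. The breed value for miR-182, -0.018, averages -0.38 at 30 days and 0.34 at 120 days. Its log2 ratio was -5.12 to -5.06 in Ha, which did not overlap that of La.

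Germ-cell markers moved with age in the same libraries as the cluster. Their list has 4 entries, and all 4 were called higher at 120 days in each breed, with a median log2 fold change of 7.18 in the former and 9.08 in the latter. Only miR-449-z was at 0 in a whole group, La. Within Hb the order of the list in TPM was that of some entries and not of others. The list summed to 4303, 2580 and 13177 TPM in Hb libraries 1, 2 and 3, while ssc-miR-183 stood at 779, 672 and 540 TPM and ssc-miR-182 at 1184, 677 and 883 TPM. Highest in library 3 and lowest in library 2, like the list, were miR-183-x, at 6.06, 2.94 and 7.59 TPM, and miR-183-z, at 0.808, 0.654 and 2.19 TPM. The other 5 entries had the order of ssc-miR-182. TPM leaves out the TMM factors, which were 1.20, 0.694 and 0.966 in Hb libraries 1, 2 and 3. With them, library 2 is no longer the lowest for the germ-cell list or for ssc-miR-182, so these orders depend on the scaling. The part of germ cells in the values of the cluster was not tested.

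The other lists differed in how many entries were called higher at 120 days, where the share over all miRNAs was 25.1% in HZ and 26.3% in LC boars. Called lower at 120 days were 208 of all 1441 miRNAs tested in HZ and 84 of 1446 in LC boars. Of 11 striated muscle entries (miR-1, miR-133 and miR-206), 6 were called higher at 120 days in HZ and 7 in LC boars, and the list summed to 109 to 285 TPM at 30 days and 453 to 846 TPM at 120 days. Of 18 entries of miRNAs known from sensory organs and neurons (miR-124, miR-9, miR-7, miR-204 and miR-211), 5 were called higher in each breed, all of them miR-9 entries, and miR-204-x was called lower in HZ boars. That list summed to 465 to 617 TPM at 30 days and 593 to 1877 TPM at 120 days, with miR-9 listed under 3 names of nearly the same count. The epithelial list (miR-200, miR-141 and miR-429), at 52.4 to 380 TPM, overlapped between the ages in both breeds. Of its 8 entries, ssc-miR-141 was called higher (1.37, SE 0.38, adjusted p = 0.0124 in edgeR) and ssc-miR-200b lower (-1.35, SE 0.57, adjusted p = 0.0829) in HZ boars. In LC boars the 3 miR-141 entries were called higher, with ssc-miR-141 at 2.23 (SE 0.30), and miR-429-z lower, while ssc-miR-200b stood at -0.24 (SE 0.36). The red blood cell list (miR-144, miR-451 and miR-486) stood at 1220 to 1272 TPM in Lb and 2201 to 2468 TPM in La, with 4 of 10 entries called lower. In HZ boars it overlapped, at 1357 to 1768 TPM in Ha and 863 to 2298 TPM in Hb, with 1 of 10 called lower. The summed TPM of the testis list (miR-202) did not overlap between the ages in either breed, at 18675 to 21867 TPM in Ha and 9608 to 17266 TPM in Hb, then 15272 to 17278 TPM in La and 17966 to 24405 TPM in Lb. With the TMM factors, which TPM leaves out, the sums of La and Lb overlap. Of its 5 entries, miR-202-y was called lower in HZ boars (-1.52, SE 0.30, adjusted p = 0.00165 in edgeR). None was called in LC boars, where the median log2 fold change of the list was -0.018 and only ssc-miR-202-5p was positive, at 0.26. The part of these lists in the results was not tested.

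**Figure D4:**
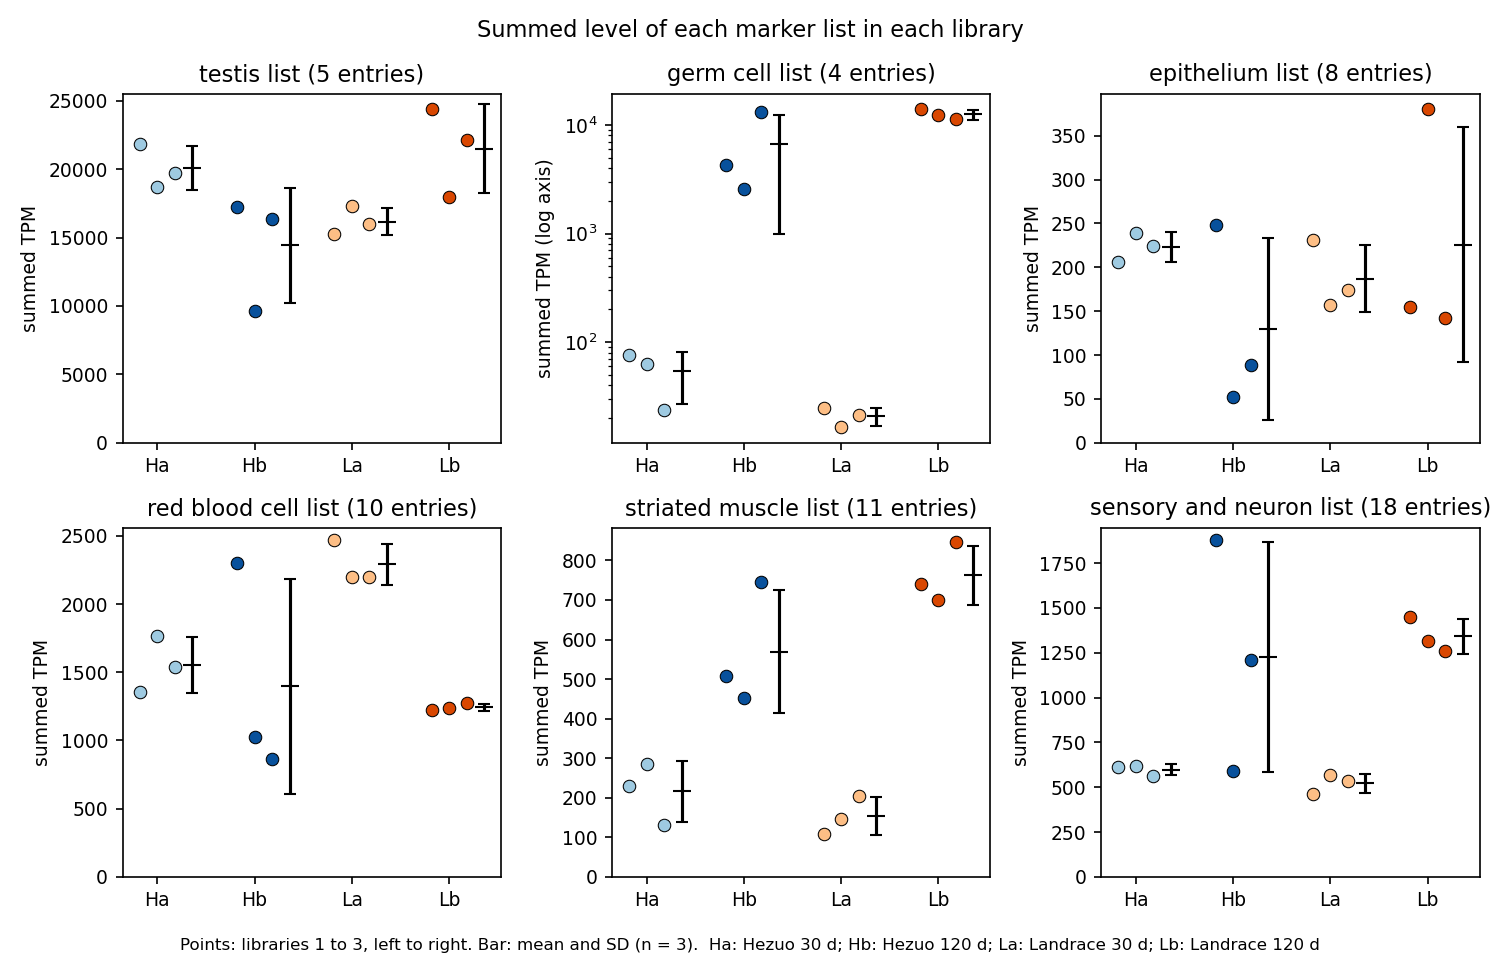
Summed TPM of the 6 marker lists (1 panel each) in the 3 libraries of Ha, Hb, La and Lb, with the mean and SD beside the points and a log axis for the germ cell list. That list is at 16.6 to 76.9 TPM at 30 days and at 2580 to 13895 TPM at 120 days, and the testis list lies between 9608 and 24405 TPM, lower in Hb than in Ha and higher in Lb than in La.

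The abundant miRNAs that share the seed of miR-96 were not called higher at 120 days. The log2 fold change of ssc-miR-1271-5p was 0.04 (SE 0.27, adjusted p = 0.918 in edgeR) in Ha vs. Hb and -0.45 (SE 0.11, adjusted p = 0.00740) in La vs. Lb. For miR-1271-x it was -0.40 (SE 0.30) and -0.81 (SE 0.12, adjusted p = 0.000143). The mean level of ssc-miR-1271-5p was above that of ssc-miR-96-5p in every group, at 1085 against 156 TPM in Ha and 1041 against 319 in Hb, then 1464 against 108 in La and 1212 against 335 in Lb. miR-263-z, with the seed of miR-182, averaged 0.548 TPM in Ha and 0.520 in Hb, and 0.145 in La and 0.526 in Lb. With 55 counts in all 12 libraries, it was called higher in Lb than in La, at 1.63 (SE 0.68, adjusted p = 0.0762 in edgeR), and lower in La than in Ha, at -1.74 (SE 0.72, adjusted p = 0.145).

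Profiles over the 12 libraries were compared by the root mean square difference of log2(TPM + 1), each profile centred on its mean, among those that averaged 10 TPM or more. The nearest of the 433 others to ssc-miR-183 were ssc-miR-100 (0.28), miR-192-x (0.32), the predicted m0001-5p (0.33), ssc-miR-141 (0.33) and miR-201-y (0.37). Nearest to ssc-miR-96-5p were ssc-miR-212 (0.17), miR-143-y (0.18), miR-143-x (0.21), miR-192-x (0.25) and miR-147-y (0.26). Nearest to ssc-miR-182 were ssc-miR-6529 (0.17), ssc-miR-212 (0.20), miR-29-x (0.20), miR-6516-z (0.22) and ssc-miR-151-3p (0.23).

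The cluster's own miRNAs were not each other's closest profiles. ssc-miR-183 and ssc-miR-96-5p were 0.30 apart, with 1 other miRNA closer to ssc-miR-183 and 6 closer to ssc-miR-96-5p. ssc-miR-96-5p and ssc-miR-182 were 0.31 apart, with 7 and 14 closer. ssc-miR-183 and ssc-miR-182 were 0.54 apart, with 28 and 132 closer. The 12 libraries share the split by age, so these distances are a description only.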

How the data were processed

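Small RNA libraries were made from testes in 4 groups of 3. The authors filtered reads with fastp 0.18.0, removed tags of other RNAs, exons, introns and repeats of Sus scrofa 11.1, and assigned the rest with bowtie to miRBase 22.1 and with miRDeep2. The deposited counts are raw tag counts per miRNA and library. The TPM that the authors deposited scales them to a library total and writes a count of 0 as 0.01. Hairpin bounds of predicted miRNAs were deposited too.

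The cluster, its entries and the lists were chosen with earlier results of these data known. Counts were fitted in edgeR 4.0.16 (glmQLFit, glmQLFTest, TMM) in R 4.3.3, 1 fit per comparison, over miRNAs with at least 1 count. Adjusted p-values are Benjamini-Hochberg over all miRNAs tested. Tests were checked on simulated data. Ratios were log2 of counts plus 0.5. Named besides the entries were all sharers of a seed and the 5 nearest profiles. Alternatives were RLE factors, library size, DESeq2 1.42.0, filterByExpr, 1 fit of 12 libraries, robust estimation, summed arms, a replicate block, other pseudocounts and leaving out each library. Replicates were compared by chi-square.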

Additional observations from a re-analysis of the deposited data

Results flagged for a closer look

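Tags were also counted on the opposite strand of the cluster, in 2 predicted miRNAs that are not among the entries of the cluster. Both are listed here because their counts exceeded, in at least 1 library, the floor of 3 counts. The hairpin m0053 lies over MIR183 on the minus strand, at chr18:18982270-18982334, and m0300 lies over MIR96, at chr18:18982513-18982577, in bounds as the authors list them, which are 1 base longer than the hairpin sequences. Their mature sequences, with bases 2 to 8 in capitals, show the relation to the cluster.
m0053-5p: tTATGGCCcttcggtaattcact
m0300-5p: aTTGGCACtgcacataattg
The reverse complement of the former shares a run of 21 bases with miR-183-y, the 3p arm of miR-183. The latter carries the seed of miR-96.

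m0053-5p had at most 49 counts in a library. It had 49, 25 and 35 counts in Ha, 12, 5 and 7 in Hb, 27, 36 and 49 in La and 15, 26 and 15 in Lb. In HZ boars it was lower at 120 days, where the leading entries of the cluster were higher. The edgeR log2 fold change was -1.68 in Ha vs. Hb (SE 0.46, adjusted p = 0.0122), which passed both thresholds. In La vs. Lb it was -0.93 (SE 0.41, unadjusted p = 0.0429, adjusted p = 0.0932), which did not. Leaving out each library in turn gave -1.54 to -0.60. Without Lb library 2 (-1.54) or La library 1 (-1.05) it passed both thresholds, while without Lb library 1 it was weakest (-0.60, unadjusted p = 0.164 in edgeR). For the complementary 3p entry miR-183-y the values were 1.18 and 1.21.

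m0300-5p had at most 5 counts in a library and 13 in all, in 6 of the 12 libraries, too few for a statement on age or breed.

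The summed TPM of the testis list, miR-202, went opposite ways with age in the breeds, with no overlap between the ages. TPM leaves out the TMM factors, which were 0.910 to 0.977 in La and 1.11 to 1.16 in Lb. With them the sums of La and Lb overlap. The mean summed level of Hb minus that of Ha was -5654 TPM, and it was 5333 TPM higher in Lb than in La. The difference between the breeds was not tested for the sum. For its leading entry, ssc-miR-202-5p, the edgeR interaction was 0.56 (SE 0.22, unadjusted p = 0.0240, adjusted p = 0.156).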

How the results depend on the processing

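The number of entries called stayed at 4 or 5 in Ha vs. Hb and at 6 to 8 in La vs. Lb under the alternatives run, and at 0 in Ha vs. La and the interaction. In Hb vs. Lb the 1 call became 0 with library size alone and with filterByExpr, and 0 to 1 without each library in turn. filterByExpr, which tests fewer miRNAs, called 352 of them in Ha vs. Hb (570 without it) and 257 in La vs. Lb (464). Between the breeds it called 62 at 30 days (121) and 145 at 120 days (243). The call of miR-183-y in La vs. Lb was lost with DESeq2. That in Ha vs. Hb was lost with DESeq2, with library size alone, with the replicate block (1.14, unadjusted p = 0.0508) and without 4 of the 6 libraries in turn. No change of sign touched a called value. ssc-miR-182 in Ha vs. La was 0.0023 in 1 fit of 12 libraries and -0.054 to 0.050 without each library. With library size alone, Hb vs. Lb was 0.086 for ssc-miR-96-5p and 0.16 for ssc-miR-182, and the interaction was 0.14 for ssc-miR-183, 0.23 for miR-183-x, 0.27 for miR-183-y and 0.26 for ssc-miR-182. That scaling moved the median of all miRNAs by 0.22 in La vs. Lb, 0.27 in Hb vs. Lb and 0.33 in the interaction. Leaving out libraries gave interactions of -0.42 to 0.052 for ssc-miR-183, -0.43 to 0.29 for miR-183-x and -0.36 to 0.22 for miR-183-y, and -0.035 to 0.77 for the predicted m0053-5p in Hb vs. Lb. The causes were not tested.

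Ratios without each library ranged, by age, from -0.75 to -0.27 for the 3p over the 5p arm of miR-183 and 0.064 to 0.26 for that of miR-182, from 0.67 to 1.11 for the minor 5p entries of miR-183, 0.11 to 0.25 for miR-182 and -0.30 to 0.18 for miR-96. By breed they ranged from 0.073 to 0.55 for the arms of miR-183, from 0.21 to 0.36 for ssc-miR-96-5p over ssc-miR-183, 0.24 to 0.28 for ssc-miR-182 over ssc-miR-96-5p, -0.0034 to 0.19 for the 3p over the 5p arm of miR-182, and -0.16 to 0.28 and -0.10 to 0.040 for the minor 5p entries of miR-183 and miR-182.

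Correlations of deviations were -0.21 to 0.20 (median 0.040) between same-numbered libraries and -0.24 to 0.29 (median 0.022) between others, so the numbers were not taken as pairs. Of the 12 libraries, 7 correlated best with their own number, which 3 of the 9 possible partners of each share. With the replicate block, the 3 ratios between leading entries kept their values by age (-0.36, -0.88 and -0.52) and by breed (0.30, 0.56 and 0.26), with an adjusted exact permutation p of 0.0833 each, since the paired test has few arrangements. In edgeR the block left 4, 8, 0, 1 and 0 entries called. With profiles of miRNAs from 1 TPM up, 2 of the 5 nearest to ssc-miR-183 and 3 of those to ssc-miR-182 were among those named.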
